A study of Homo sapiens with 8 samples.

Results

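Transcripts of PPAR-alpha, of fatty acid oxidation and of ketone body formation were followed through 32 genes in HepG2, a human liver cancer line that keeps many traits of hepatocytes. The members are a list of named genes, selected by symbol: nuclear regulators, the proteins that bind and import fatty acids, the carnitine shuttle, the enzymes of mitochondrial and peroxisomal beta-oxidation, 1 enzyme of ketone bodies and known PPAR-alpha target genes. The list was chosen with earlier results of these data known. All 32 had a row among the 20897 genes of the files, and 28 of them reached at least 1 FPKM (fragments per unit of transcript length, scaled to the fragments mapped in the library) in at least 2 of the 8 libraries and were tested. ACADL, PDK4, FGF21 and CYP4A11 were listed at 0 FPKM in every library and were not tested. The cells were treated for 18 h in medium with 1% serum. They received vehicle alone (DMSO, 3 libraries), genistein (3 libraries), a soy isoflavone that inhibits tyrosine kinases and binds oestrogen receptors, or the bone morphogenetic protein BMP6 at 50 ng/ml (2 libraries). Every culture, controls included, held 1% DMSO. The series design states genistein at 10 micromolar, and the treatment protocol prints that figure in millimolar, so the dose is uncertain. The labels name 1 cell line and no donor, and, in the design text, the replicates are called biological.

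PPAR-alpha is a nuclear receptor that is activated by fatty acids and binds DNA together with RXR. In the fasting liver it raises the transcription of genes that import fatty acids, carry them as acylcarnitines into mitochondria, shorten them by beta-oxidation and turn the resulting acetyl-CoA into ketone bodies. PGC-1 alpha, encoded by PPARGC1A, is a coactivator of the receptor, and CREB-H, encoded by CREB3L3, is a membrane-bound transcription factor of the liver that acts with PPAR-alpha on shared targets.

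The receptor's usual element is a direct repeat of AGGTCA with 1 base between the copies, a kind of element that HNF4-alpha also binds. RefSeq promoters (build GRCh38.p14), which reach from 250 bases before to 50 bases after a transcription start, were found for 25 of the 32 members, 32 promoters in all. No member promoter held the exact repeat on either strand, whereas 0.0228% of all 35116 promoters held it. With up to 2 mismatches over the 12 fixed letters, 4 member promoters held it (12.5%), against 2.97% of all promoters. The palindromic cAMP response element TGACGTCA was in none of the 32 and in 1.85% of all. The 4 matches are shown with 120 bases of upstream sequence each, because the set includes FABP1, CREB3L3 and SLC27A2, which are among the members lower after genistein, beside ACAA2, which did not pass the test. Of the other members lower after genistein, SLC25A20 and BDH1 had promoters without a match, and no ACOX2 promoter was searched. Capitals mark the match, printed on the strand of the gene, and a match in these letters is not a measured binding site. In FABP1 and SLC27A2 the match lies on the opposite strand, so the capitals there show its reverse complement. Positions count back from the transcription start, with -1 the base before it.
FABP1 (chr2:88128065-88128184, minus strand, match at -68 to -56, 2 mismatches): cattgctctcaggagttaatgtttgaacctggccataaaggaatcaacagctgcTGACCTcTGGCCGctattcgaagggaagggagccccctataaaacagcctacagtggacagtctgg
CREB3L3 (chr19:4153381-4153500, plus strand, match at -222 to -210, 1 mismatch): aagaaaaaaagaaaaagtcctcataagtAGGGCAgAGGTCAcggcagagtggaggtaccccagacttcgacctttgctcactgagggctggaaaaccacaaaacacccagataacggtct
SLC27A2 (chr15:50181997-50182116, plus strand, match at -145 to -133, 2 mismatches): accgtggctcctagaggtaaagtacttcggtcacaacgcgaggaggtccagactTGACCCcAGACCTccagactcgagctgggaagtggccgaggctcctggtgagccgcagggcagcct
ACAA2 (chr18:49813544-49813663, minus strand, match at -76 to -64, 2 mismatches): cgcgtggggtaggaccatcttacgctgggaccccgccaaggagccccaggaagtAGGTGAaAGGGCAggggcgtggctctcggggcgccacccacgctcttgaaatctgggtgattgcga

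FPKM totals per library ran from 1704599 to 3105197, and the depth in reads is unknown. Among tested genes 1679 were at 0 in DMSO 1 and 2167 in genistein 2, where the remaining libraries had 356 to 962. The BMP6 libraries differed from each other with the GC content of the transcript: across 11993 genes Spearman's rho between the difference (BMP6 1 minus BMP6 2) and GC content was -0.53, as a description across genes that share both libraries. For a library minus the mean of its group's others, rho was 0.21, 0.18 and -0.38 in genistein 1, 2 and 3. In DMSO 1, 2 and 3 it was 0.01, -0.19 and 0.15. Of 8 hepatocyte markers none was at 0 in any library, and their summed level was 107508 to 130872 FPKM in DMSO, 78848 to 108900 in genistein and 144201 to 206456 in BMP6. Within that list TTR was called lower after genistein (7162 to 8195 FPKM in DMSO, 822 to 1576 in genistein, limma adjusted p = 0.0193). APOA1 lay lower (50517 to 58896 against 3983 to 12742 FPKM) and ALB higher (17949 to 40448 against 45780 to 61916 FPKM) in each genistein library without passing (limma adjusted p = 0.0895 and 0.561). The 4 adipocyte markers, ADIPOQ, PLIN1, LEP and CIDEA, were listed at 0 throughout. Genes that also mark bile duct cells were lower in the treated libraries: the sum of KRT7, SOX9, EPCAM and CFTR was 1145 to 2046 FPKM in DMSO, 261 to 403 in genistein and 172 to 470 in BMP6, carried by SOX9 and EPCAM, with CFTR at 0 and KRT7 below 1 FPKM in all libraries. Muscle markers summed to 115 to 148 FPKM in DMSO, 1304 to 2435 in genistein and 47.3 to 423 in BMP6, mostly from ACTA1, with MYH7 listed at 0 and MB at 0 in all but genistein 1. Blood cell markers summed to 3250 to 4839, 1218 to 1923 and 1552 to 2385 FPKM, nearly all from LYZ, with PTPRC and CD3E listed at 0. LYZ was called lower after genistein and CD68, the remaining blood cell marker, higher (31.4 to 40.6 FPKM in DMSO, 68.8 to 86.7 in genistein, limma adjusted p = 0.0448 and 0.0406). Of 12 housekeeping genes, 10 had positive estimates after each treatment. Their median log2 change was 0.50 after genistein and 0.75 after BMP6 (all tested genes 0.05 and -0.03). Only TBP was called, higher after genistein (limma adjusted p = 0.0218). Of the stellate and fibroblast markers only PDGFRB was above 0, with 1.88 to 4.91 FPKM in DMSO, 0 to 2.92 in genistein and 14.3 to 19.5 in BMP6 (not called). The part of these markers in the changes reported here was not tested.

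After genistein, 6 of the 28 tested members were lower than in DMSO and none was higher by limma, with p-values adjusted over 12661 genes by the Benjamini-Hochberg method and a threshold of 0.05. The 6 were the fatty acid binding protein FABP1, the regulator CREB3L3, the importer SLC27A2, the carnitine carrier SLC25A20, the peroxisomal oxidase ACOX2 and the ketone body enzyme BDH1. The 6 lower members are 21.4% of those tested, where 5.96% of all tested genes were called lower and 6.11% higher. As the list was chosen with earlier results of these data known, the gap between these shares gives no independent support. At an unadjusted p under 0.05 there were 11 lower and 2 higher members, against 14.3% and 15.7% of all tested genes. The median log2 change, on the log2(FPKM + 1) scale that understates changes of low genes, was -0.70 over the members and 0.05 over all tested genes. Fewer cells in a given state and less RNA per cell cannot be told apart in such bulk libraries. The count of 6 was 2 without DMSO 2 (1.03% of all tested genes lower), 2 without genistein 3 (1.35%) and 4 without DMSO 3 (2.37%). VNN1 was called higher without genistein 2, where it was at 0. It was at 0 in all DMSO and BMP6 libraries and entered the test only through genistein 1 and 3, so this call has no independent support.

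**Figure D1:**
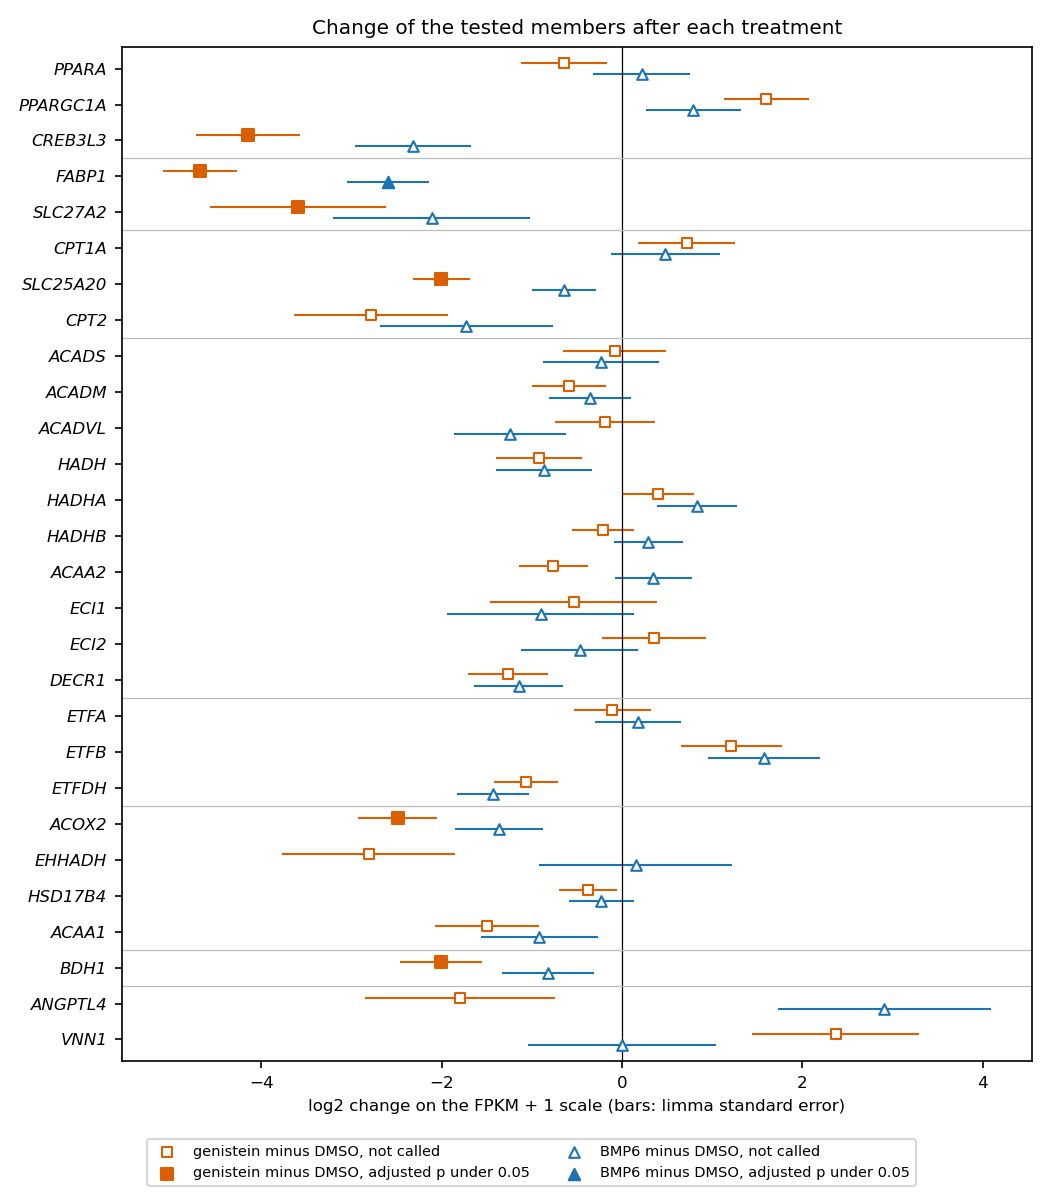
Log2 change on the FPKM + 1 scale (x axis, bars are the limma standard error) of the 28 tested members (y axis, ordered by role) after genistein (orange squares) and after BMP6 (blue triangles), each against the same DMSO libraries. Filled symbols passed the adjusted threshold: 6 members after genistein and FABP1 alone after BMP6, all to the left of 0.

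Libraries of the genistein group lay entirely below the DMSO libraries for 14 of 28 members and entirely above for 2, against 20.6% and 23.3% of all tested genes. The 14 comprised the 6 called members and CPT2, ACADM, HADH, ACAA2, DECR1, ETFDH, EHHADH and ACAA1. The 2 above were PPARGC1A and ETFB. The plot of levels by library shows these ranges. By role, the genes entirely below were 1 of 3 regulators, both of binding and uptake, 2 of 3 carnitine shuttle genes and 3 of 4 peroxisomal genes. They were also 4 of 10 tested genes of the mitochondrial spiral, 1 of 3 electron transfer flavoprotein genes and the ketone body enzyme. Of the 2 tested other targets 0 lay entirely below. The difference between roles was not tested.

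**Figure D2:**
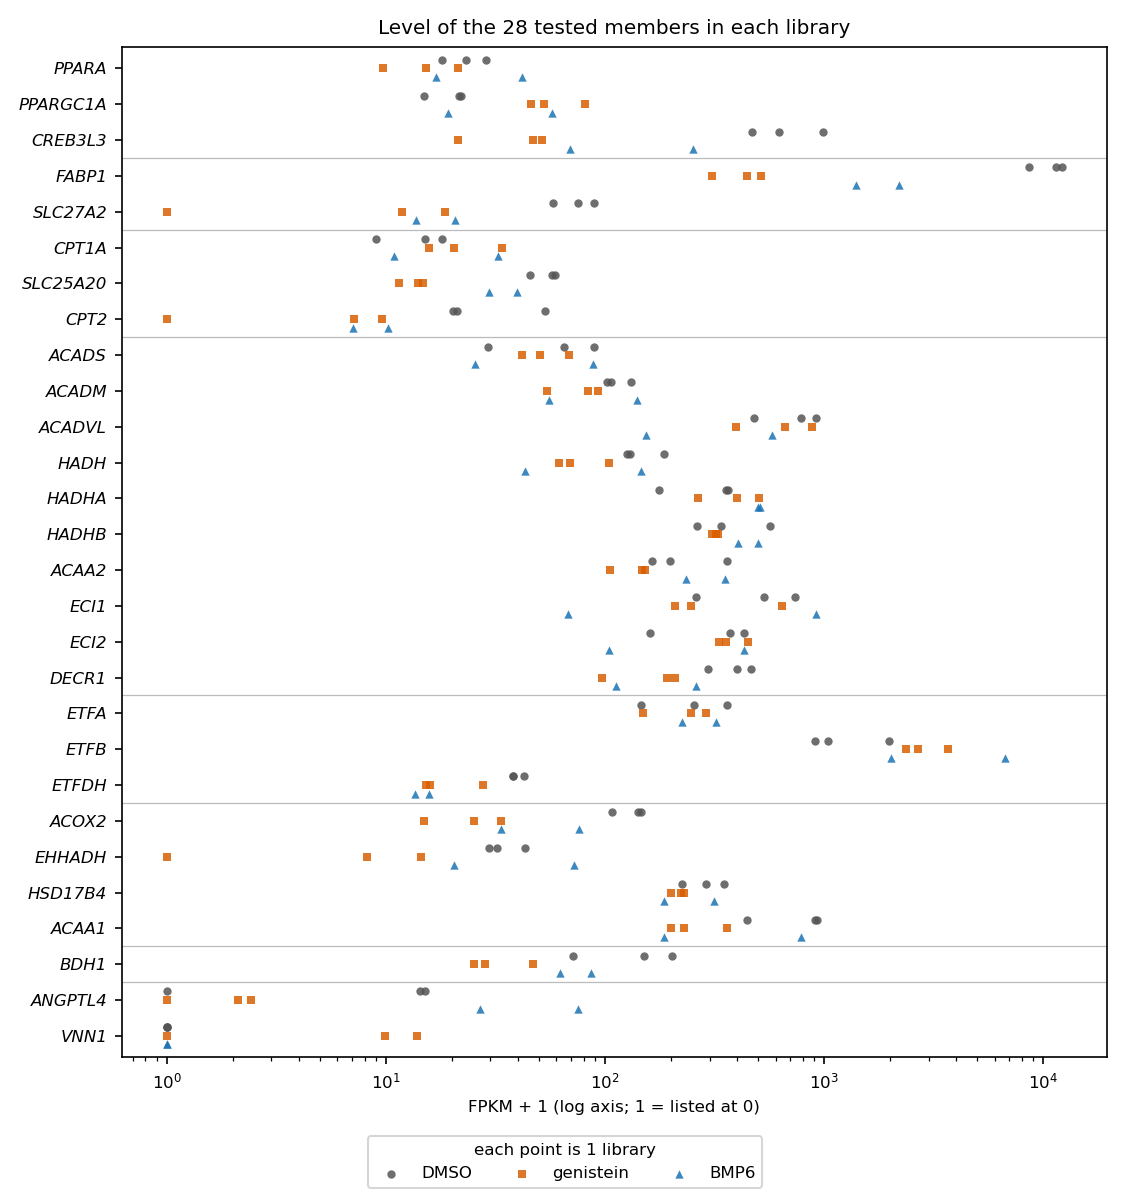
FPKM + 1 on a log axis for each of the 28 tested members, 1 point per library (grey circles DMSO, orange squares genistein, blue triangles BMP6), with lines between the roles. FABP1 drops from 8564 to 12192 FPKM in DMSO to 306 to 517 in genistein, while HADHA, HADHB and ETFA overlap between those groups.

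Among the regulators, the receptor itself was low and its groups overlapped. PPARA stood at 17, 22.3 and 27.8 FPKM in DMSO, at 14.3, 8.75 and 20.3 in genistein and at 40.9 and 16 in BMP6. Neither treatment passed the test (log2 change -0.64 ± 0.48, SE, limma adjusted p = 0.398 after genistein, and 0.22 ± 0.54, limma adjusted p = 0.851 after BMP6). The libraries of the 3 groups shared a common range, and the largest value was in BMP6 1.

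PPARGC1A, the coactivator gene, had 14, 20.5 and 21 FPKM in DMSO, 45.2, 51.7 and 79.7 in genistein and 56.4 and 18.3 in BMP6. Each genistein library exceeded each DMSO library, with a log2 difference of 1.60 ± 0.47 (SE) that missed the threshold (limma adjusted p = 0.0627). It was called in 5 of 21 alternative fits, and in none of those without 1 DMSO or genistein library (limma adjusted p up to 0.21). The BMP6 libraries fell on either side of the genistein range's lower end.

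CREB3L3 (ENSG00000060566, chromosome 19, 4104629 to 4124050 in hg18, the build of the files) had 986, 619 and 465 FPKM in DMSO, 45.7, 50.7 and 20.3 in genistein and 68.1 and 251 in BMP6. The 3 groups did not overlap: DMSO was highest, BMP6 intermediate and genistein lowest. After genistein it fell by 4.15 ± 0.57 on the log2 scale (SE, limma adjusted p = 0.00692), a ratio of mean FPKM of 17.7, and passed in each of the 8 fits without 1 library (limma adjusted p at most 0.0434). With DMSO 1 and genistein 2 both left out, the adjusted p was 0.0572. The difference of -2.32 ± 0.64 between BMP6 and DMSO did not pass (limma adjusted p = 0.131). Without BMP6 2, with 1 BMP6 library left, it was -3.25.

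Fatty acid binding and uptake held the member with the smallest adjusted p. FABP1 (ENSG00000163586, chromosome 2, 88203625 to 88208693), the fatty acid binding protein that fills the cytosol of hepatocytes and passes ligands to PPAR-alpha, had 8564, 12192 and 11475 FPKM in DMSO. It had 517, 445 and 306 FPKM in genistein and 1403 and 2205 in BMP6. No group overlapped another. Its rank by FPKM among the 20897 genes was 11, 9 and 12 in DMSO, 815, 837 and 961 in genistein and 160 and 213 in BMP6. FABP1 fell by 4.68 ± 0.41 on the log2 scale after genistein (SE, limma adjusted p = 0.00169), a ratio of mean FPKM of 25.4. It passed in all 21 alternative fits, with adjusted p at most 0.0227.

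FABP1 was also the only member called after BMP6. It fell by 2.59 ± 0.45 on the log2 scale (SE, limma adjusted p = 0.0498), a ratio of mean FPKM of 5.96. This call stood at the threshold and was made in 8 of 21 alternative fits. Leaving out DMSO 1, 2 or 3 gave limma adjusted p-values of 0.0544, 0.219 and 0.112. Leaving out genistein 1, 2 or 3 gave 0.107, 0.0831 and 0.123. Without BMP6 1, with 1 BMP6 library left, the log2 change was -2.27. Between the treatments FABP1 differed by -2.09 ± 0.45 (genistein minus BMP6, limma adjusted p = 0.0752).

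SLC27A2 (ENSG00000140284, chromosome 15, 48261685 to 48315865) encodes a fatty acid transport protein that also activates very long chain fatty acids. It had 74, 87.7 and 57.2 FPKM in DMSO, 17.6, 0 and 10.9 in genistein and 12.7 and 19.7 in BMP6. All libraries of both treatments were below all DMSO libraries. The 0 in genistein 2 carries no FAIL status, in a library with 2167 tested genes at 0. The change after genistein was -3.59 ± 0.98 (SE, limma adjusted p = 0.0498). With genistein 2 and DMSO 1 left out it was -2.27 (limma adjusted p = 0.065). The call was also lost without DMSO 1, 2 or 3 (limma adjusted p = 0.125, 0.15 and 0.103), without genistein 3 (0.094) and without either BMP6 library (0.0556). It was further lost with a pseudocount of 0.1 (0.136), without the filter on low values (0.0587), with only the 2 compared groups and without the intensity trend (0.0553 each).

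The carnitine shuttle has an outer membrane enzyme (CPT1A, the rate-setting step), a carrier in the inner membrane (SLC25A20) and an inner enzyme (CPT2), and their estimates after genistein lay on both sides of 0. SLC25A20 (ENSG00000178537, chromosome 3, 48869370 to 48911333) had 44.5, 56 and 58.3 FPKM in DMSO, 13.8, 13 and 10.5 in genistein and 28.6 and 38.7 in BMP6. The 3 groups formed separate ranges, with BMP6 between the others. After genistein SLC25A20 fell by 2.00 ± 0.32 on the log2 scale (SE, limma adjusted p = 0.00993), and its adjusted p was 0.0592 without DMSO 2 and 0.0556 without genistein 3. CPT2 had 52, 20.1 and 19.2 FPKM in DMSO, 8.64, 0 and 6.15 in genistein and 6.09 and 9.28 in BMP6. CPT2 lay below DMSO in all 5 treated libraries but did not pass (-2.79 ± 0.86, limma adjusted p = 0.0713 after genistein). Its span shares 94 bases with CZIB.

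CPT1A had 8.01, 14.1 and 17 FPKM in DMSO, 19.5, 14.7 and 32.9 in genistein and 31.4 and 9.91 in BMP6. Its groups overlapped, and the log2 change after genistein was 0.72 ± 0.54 (SE, limma adjusted p = 0.402). CPT1A and SLC25A20 thus had estimates of opposite sign, of which only that of SLC25A20 passed.

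**Figure D3:**
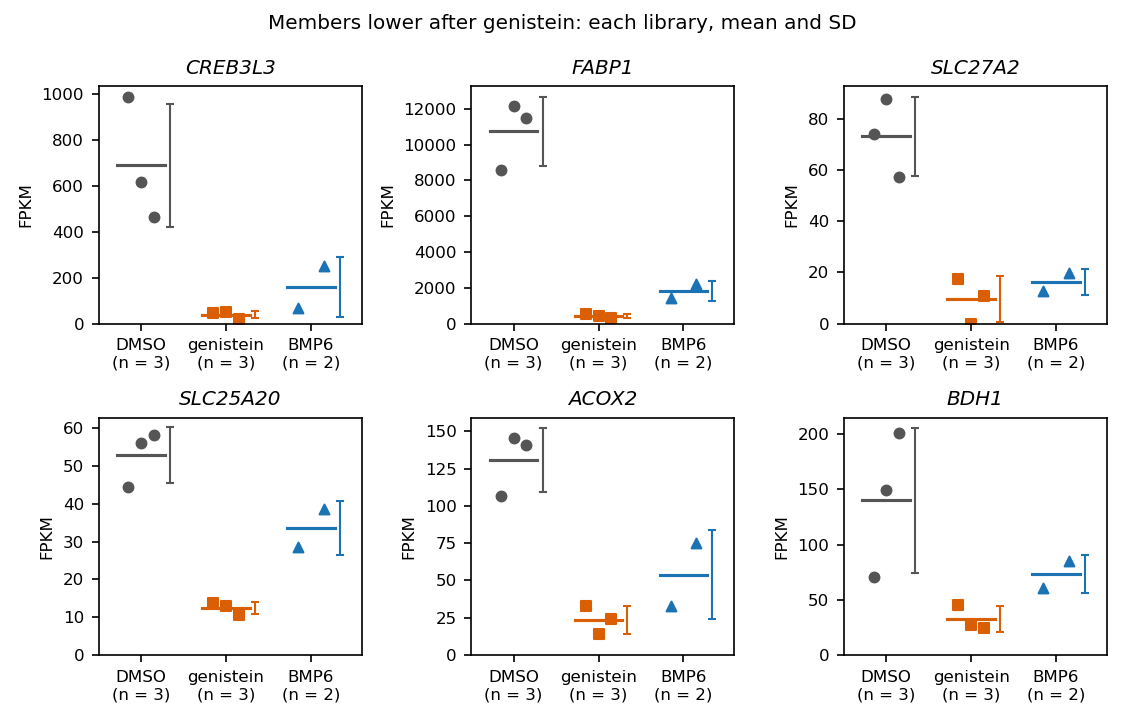
FPKM of the 6 members called lower after genistein, 1 point per library, with the group mean as a line and the SD as a bar (DMSO n = 3, genistein n = 3, BMP6 n = 2). In all 6 panels each genistein library lies below each DMSO library, and in CREB3L3, FABP1, SLC25A20, ACOX2 and BDH1 also below both BMP6 libraries.

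None of the 10 tested members of the mitochondrial spiral was called after either treatment. Acyl-CoA dehydrogenases open each turn of the spiral, and each enzyme prefers a chain length. ACADVL, for very long chains, had 479, 916 and 786 FPKM in DMSO, 877, 664 and 397 in genistein and 152 and 574 in BMP6. ACADM, for medium chains, had 131, 106 and 101 FPKM in DMSO, 82.5, 53.3 and 92.2 in genistein and 139 and 54.7 in BMP6. ACADS, for short chains, ranged from 28.3 to 88.5 FPKM in DMSO and from 40.7 to 67.5 in genistein, with 24.5 and 86.9 in BMP6. After BMP6 the ACADVL log2 change was -1.24 ± 0.62 (SE, limma adjusted p = 0.315). Without BMP6 2, with 1 BMP6 library left, it was -2.20. Only for ACADM did the genistein libraries lie apart from DMSO, by -0.59 ± 0.41 (log2, SE, limma adjusted p = 0.365).

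HADHA and HADHB encode the alpha and beta subunits of the mitochondrial trifunctional protein, which carries out the later steps on long chains. The genes are neighbours on chromosome 2 (26267009 to 26321098 and 26321120 to 26366836), separated by 21 bases. HADHA had 176, 365 and 357 FPKM in DMSO, 501, 264 and 401 in genistein and 499 and 509.6 in BMP6. HADHB had 563, 262 and 337 FPKM in DMSO, 319, 326 and 307 in genistein and 500.2 and 405 in BMP6. DMSO 1 held the lowest HADHA and the highest HADHB of its group. Log2 changes after genistein were 0.40 ± 0.40 and -0.21 ± 0.34 (SE, limma adjusted p = 0.528 and 0.71).

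HADH, the dehydrogenase for shorter chains, had 184, 125 and 129 FPKM in DMSO, 103, 68.6 and 60.4 in genistein and 42.2 and 145 in BMP6 (log2 change after genistein -0.92 ± 0.48, limma adjusted p = 0.231). After BMP6 the HADH log2 change was -0.87 ± 0.53 (SE, limma adjusted p = 0.401). Without BMP6 2, with 1 BMP6 library left, it was -1.75. The thiolase ACAA2, which releases acetyl-CoA, had 359, 162 and 196 FPKM in DMSO, 147, 104 and 152 in genistein and 354 and 233 in BMP6. Genistein libraries were below those of both other groups for ACAA2, without passing either test (log2 difference -0.76 ± 0.38, limma adjusted p = 0.218 against DMSO, and -1.11 ± 0.43, limma adjusted p = 0.282 against BMP6).

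Unsaturated fatty acids need auxiliary enzymes, the isomerases ECI1 and ECI2 and the reductase DECR1. DECR1 had 293, 462 and 399 FPKM in DMSO, 209, 191 and 96.2 in genistein and 112 and 258 in BMP6, so that all treated libraries were below all DMSO libraries. Its log2 changes were -1.27 ± 0.44 after genistein and -1.15 ± 0.50 after BMP6 (SE, limma adjusted p = 0.101 and 0.262). Scaling each library to the same FPKM total gave an adjusted p of 0.0116 after genistein. ECI1 ranged from 259 to 733 FPKM in DMSO and from 208 to 643 in genistein, and had 66.7 and 921 in BMP6 1 and 2. ECI2 ranged from 159.5 to 429 FPKM in DMSO and from 332 to 448 in genistein, with 104 and 432 in BMP6. The ECI2 value of genistein 1 carries a FAIL status in the files, and the span of the gene overlaps that of TEX56P. Neither isomerase separated any pair of groups.

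The electron transfer flavoprotein takes electrons from the acyl-CoA dehydrogenases and hands them to ETFDH, its oxidoreductase in the inner membrane. None of these 3 genes was called, and their library ranges shifted in different directions. ETFB, the beta subunit, had 912, 1042 and 1966 FPKM in DMSO, 3653, 2682 and 2362 in genistein and 2013 and 6668 in BMP6. All treated libraries were above all DMSO libraries for ETFB, with log2 differences of 1.21 ± 0.56 and 1.57 ± 0.62 that did not pass (SE, limma adjusted p = 0.187 and 0.233). ETFA, the alpha subunit, overlapped between all groups, with 144, 255 and 359 FPKM in DMSO, 289, 149 and 246 in genistein and 224 and 319 in BMP6.

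ETFDH had 37, 41.6 and 37.2 FPKM in DMSO, 26.7, 14.9 and 14.2 in genistein and 14.7 and 12.6 in BMP6. Its treated libraries lay below DMSO throughout, again without passing (-1.07 ± 0.36 and -1.43 ± 0.40, SE, limma adjusted p = 0.0897 and 0.133). The span of ETFDH in the files lies within that of C4orf46, which reached at most 27.8 FPKM, and reads of overlapping genes cannot be told apart where counting by strand is not stated.

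Peroxisomes shorten very long and branched chains. ACOX2 (ENSG00000168306, chromosome 3, 58465906 to 58497956), the oxidase for branched chains and bile acid intermediates, had 106, 145 and 141 FPKM in DMSO, 32.6, 13.9 and 24.2 in genistein and 32.7 and 75.2 in BMP6. Genistein libraries were lowest and the BMP6 libraries lay between the groups, close to genistein in BMP6 1. After genistein ACOX2 fell by 2.49 ± 0.44 on the log2 scale (SE, limma adjusted p = 0.0133), a ratio of mean FPKM of 5.55. Its adjusted p was 0.0666 without DMSO 2, 0.0565 without genistein 3 and 0.0718 without both DMSO 1 and genistein 2. After BMP6 the ACOX2 difference was -1.37 ± 0.49 (limma adjusted p = 0.196). Without BMP6 2, with 1 BMP6 library left, it was -1.96. EHHADH, the bifunctional enzyme and a classical PPAR-alpha target, had 42.4, 28.6 and 31.1 FPKM in DMSO, 7.21, 0 and 13.5 in genistein and 71.2 and 19.4 in BMP6. It was lower in each genistein library than in any other, at -2.81 ± 0.96 against DMSO (limma adjusted p = 0.0936) and -2.96 ± 1.07 against BMP6 (limma adjusted p = 0.252).

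The peroxisomal thiolase ACAA1 had 442, 925 and 912 FPKM in DMSO, 358, 227 and 199.8 in genistein and 184 and 785 in BMP6. The genistein group was below DMSO (log2 change -1.50 ± 0.58, SE, limma adjusted p = 0.128), and the value passed when each library was scaled to the same FPKM total (limma adjusted p = 0.0234). HSD17B4, the bifunctional enzyme of the branched chain route, had 349, 287 and 223 FPKM in DMSO and at most 229 in genistein, and 312 and 185 in BMP6, so that the groups overlapped. Its log2 change of -0.38 ± 0.32 was the smallest of the 4 peroxisomal members after genistein.

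BDH1 (ENSG00000161267, chromosome 3, 198721051 to 198784591), the mitochondrial dehydrogenase that interconverts acetoacetate and beta-hydroxybutyrate, had 70.7, 149 and 201 FPKM in DMSO, 45.7, 27.4 and 24.3 in genistein and 61.1 and 85.5 in BMP6. Genistein libraries were below both other groups, while BMP6 overlapped DMSO. After genistein BDH1 fell by 2.01 ± 0.45 on the log2 scale (SE, limma adjusted p = 0.0286). Leaving out DMSO 2 or 3 gave adjusted p-values of 0.108 and 0.0836, and leaving out genistein 1, 2 or 3 gave 0.0513, 0.0907 and 0.114. It was 0.0616 without both DMSO 1 and genistein 2.

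Of the 5 other target genes, PDK4, the kinase that closes pyruvate dehydrogenase to spare glucose, FGF21, the fasting hormone, and CYP4A11, the omega-hydroxylase, were the ones listed at 0 throughout. ANGPTL4, which encodes an inhibitor of lipoprotein lipase, had 0, 14.1 and 13.3 FPKM in DMSO, 1.43, 0 and 1.11 in genistein and 26 and 74.6 in BMP6. BMP6 libraries were the highest of all groups for ANGPTL4, and genistein and DMSO overlapped only at the 0 in DMSO 1. The difference between genistein and BMP6 was -4.71 ± 1.18 (log2, SE, limma adjusted p = 0.11). Without DMSO 1, which is in neither of these groups, the estimate was the same and its SE was 0.61 (limma adjusted p = 0.0219). Against DMSO the genistein value was -1.80 ± 1.05 (limma adjusted p = 0.286) and, without DMSO 1, -3.09 (limma adjusted p = 0.0341). Leaving out DMSO 1 removes the 0 and with it the overlap, so these fits give no independent support. The span of ANGPTL4 lies within that of ELAVL1 in the files, which reached 200.3 FPKM. VNN1, the gene of the pantetheinase vanin-1, was listed at 0 in all libraries but genistein 1 and 3 (12.9 and 8.9 FPKM), through which alone it entered the test.

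After BMP6, FABP1 was 1 of 28 tested members below DMSO, or 3.57%, where 0.498% of all tested genes were called lower. The choice of the list with earlier results known limits this contrast too. No member was called higher, where 0.34% of all tested genes were, and 2 members were higher and 5 lower at an unadjusted p under 0.05, against 8.32% and 10.5% of all tested genes. BMP6 libraries lay entirely below DMSO for 8 members (CREB3L3, FABP1, SLC27A2, SLC25A20, CPT2, DECR1, ETFDH and ACOX2) and entirely above for 3 (HADHA, ETFB and ANGPTL4), against 17.3% and 16.1% of all tested genes. The median log2 change was -0.41 over the members and -0.03 over all tested genes. Lower members numbered 0 in each fit that left out 1 DMSO or genistein library, where at most 0.711% of all tested genes were lower. A fit without a BMP6 library leaves 1 in that group, so medians are given for it. Without BMP6 1 the median log2 change was -0.30 over the members and 0.23 over all tested genes. Without BMP6 2 these medians were -0.96 and -0.34. These treatments share their DMSO libraries, so their values are given side by side and were compared only through the direct contrast.

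Differences within the BMP6 pair were large for several members, as the plot of that pair against GC content shows. ECI1 had the widest gap, -3.77 on the log2 scale (BMP6 1 minus BMP6 2), with transcripts of 64.9% GC. ACAA1 (58.8% GC) differed by -2.09 and ACADS (64.6% GC) by -1.79, whereas EHHADH (44.5% GC) differed by 1.82 and ACADM (40.6% GC) by 1.33. Other members of low GC content lay below 0, among them ECI2 (44.9% GC) at -2.05, HADH (46.7% GC) at -1.76 and DECR1 (42.8% GC) at -1.20. FABP1 and SLC25A20 differed by -0.65 and -0.43. The part of GC content in the results of either treatment was not tested.

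**Figure D4:**
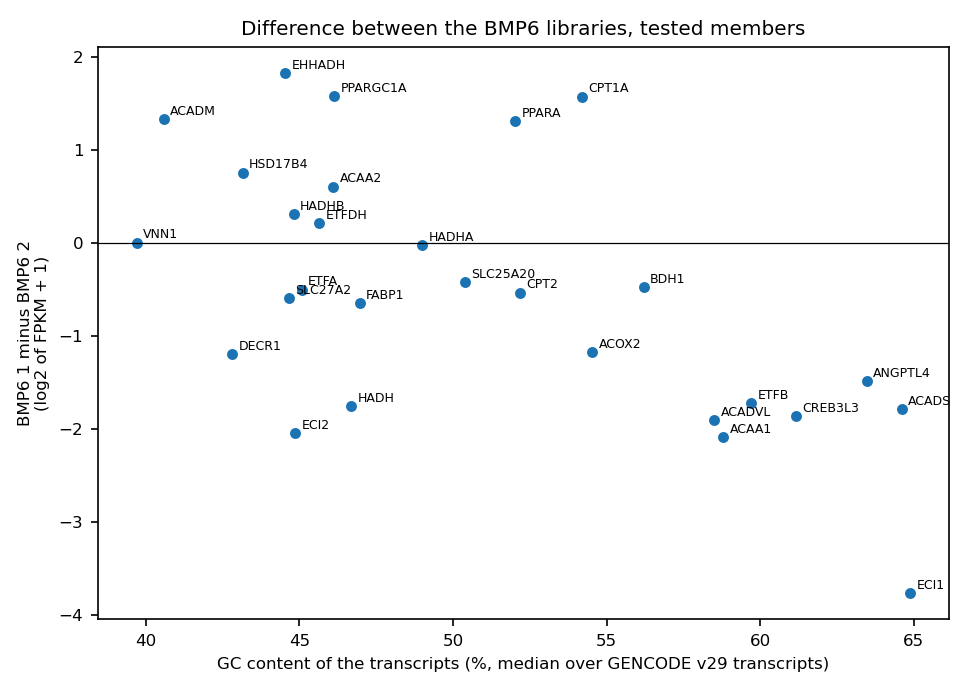
Difference between the BMP6 libraries (y axis, BMP6 1 minus BMP6 2 in log2 of FPKM + 1) against the median GC content of each gene's GENCODE v29 transcripts (x axis, percent), 1 point per tested member. ECI1 lies lowest at -3.77, and the other 6 members with the highest GC content, among them ACADS, ANGPTL4 and CREB3L3, also lie below 0.

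In the direct contrast of genistein with BMP6 no member was called in either direction by limma, where 0.75% of all tested genes were lower and 0.64% higher. At an unadjusted p under 0.05, 7 members were lower with genistein and 0 were higher, against 6.41% and 8.25% of all tested genes. Genistein libraries lay entirely below BMP6 for 9 of 28 members (CREB3L3, FABP1, SLC25A20, HADHB, ACAA2, ACOX2, EHHADH, BDH1 and ANGPTL4) and above for none, against 12.6% and 16.3% of all tested genes. The median log2 difference was -0.39 over the members and 0.12 over all tested genes. FABP1 had the smallest adjusted p among the members (0.0752), and passed with each library scaled to the same FPKM total (limma adjusted p = 0.0107). The lower count was 1 without DMSO 1 (0.885% of all tested genes), and the higher count was 1 without genistein 2 (0.45%). That higher member was VNN1, which entered the test only through genistein 1 and 3, so its call has no independent support.

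Of 65 further genes of the pathway, listed by role, 61 had a row and 57 were tested. After genistein 7 of the 57 were lower (12.3%) and 2 higher, against 5.96% and 6.11% of all tested genes. This list too was chosen with earlier results of these data known, so the gap gives no independent support. SLC16A1, a monocarboxylate transporter that carries ketone bodies, fell from 219 ± 33.4 to 59.7 ± 19.7 FPKM (SD, n = 3 each; limma adjusted p = 0.0142). MLYCD, which removes the malonyl-CoA that blocks CPT1A, fell from 45.9 ± 23 to 7.23 ± 3.71 FPKM (limma adjusted p = 0.024), and the acyl-CoA binding protein DBI from 1629 ± 613 to 391 ± 116 FPKM (limma adjusted p = 0.0277). Of the 8 fits that leave out 1 library, the SLC16A1 call was kept in 5 (lost without DMSO 2, genistein 1 or genistein 2) and the MLYCD call in 4 (lost without DMSO 1, DMSO 2, genistein 2 or genistein 3). The DBI call was kept in 3 (lost without DMSO 2, DMSO 3 or any genistein library).

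Outside the rule for naming, 3 of these further genes were singled out after their values were seen. The 2 that rose after genistein were the related receptor PPARG (36.6, 51.6 and 41.7 FPKM in DMSO, 135, 123 and 78 in genistein, limma adjusted p = 0.0345) and the PGC-1 related coactivator PPRC1 (45.8, 49.7 and 64.6 against 143, 132 and 117 FPKM, limma adjusted p = 0.0474). RXRA, the DNA-binding partner of PPAR-alpha, had a log2 change of 0.01 ± 0.30 (SE, limma adjusted p = 0.992). Both rises were called only in the fits without a BMP6 library among the 8 that leave out 1 library. Leaving out DMSO 1, 2 or 3 gave 4, 0 or 3 lower genes in place of 7, against 4.76%, 1.03% and 2.37% of all tested genes. Leaving out genistein 1, 2 or 3 gave 2, 2 or 1, against 3.18%, 2.39% and 1.35%. The 2 higher genes were 0 in each fit that left out a DMSO or genistein library.

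None of the 57 was called after BMP6 (2 higher and 10 lower at an unadjusted p under 0.05, against the all-gene shares of 8.32% and 10.5% given above). With equal FPKM totals or quantile normalization 2 were lower, against 3.54% and 1.6% of all tested genes. The direct contrast called 1 gene lower and 1 higher, or 1.75% of the 57 each, against 0.75% and 0.64% of all tested genes. ACSL5, an acyl-CoA synthetase, had 323, 556 and 354 FPKM in DMSO, 877, 536 and 669 in genistein and 177 and 151 in BMP6, and was higher with genistein than with BMP6 by 2.05 ± 0.38 (log2, SE, limma adjusted p = 0.0474). PLIN2, the coat protein of lipid droplets and a PPAR target, had 315, 158 and 209 FPKM in DMSO, 206, 113 and 178 in genistein and 1557 and 659.7 in BMP6. It was lower with genistein than with BMP6 by a log2 difference of -2.65 ± 0.50 (SE, limma adjusted p = 0.0486). The ACSL5 and PLIN2 calls were lost in every fit without 1 DMSO or genistein library.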

How the data were processed

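RNA of 8 HepG2 cultures (3 DMSO, 3 genistein, 2 BMP6) was sequenced from polyadenylated transcripts. Per the submitters' processing notes, reads were mapped with TopHat 1.1.0 and Bowtie to hg18 and quantified with Cufflinks 1.0.3 and Cuffdiff, and the authors deposited 1 table of FPKM per gene and library. Those values depend on fragment length, GC content and the gene models, hold no counts, and leave the depth unknown. Strand use in counting is unstated in the labels.

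Symbols were matched to gene IDs for 19069 of 20897 genes. The 12661 genes that reached 1 FPKM in 2 or more libraries were tested on log2(FPKM + 1) with limma 3.58.1 in R 4.3.3, with an intensity trend, all 8 libraries in 1 fit, 2-sided, p-values adjusted by the Benjamini-Hochberg method over the whole table (threshold 0.05). The fit had 5 residual and 3.22 prior degrees of freedom, and was tested on simulated data. The p-values measure the spread between these libraries, and no source says how far the cultures were separate. The members and lists were chosen with earlier results of these data known. All 32 members could be named, and of the further pathway genes up to 4 per comparison with the smallest p among those called. A result that this rule would name is not reported here. The 21 alternatives covered pseudocounts, filters, scalings, variance models, a replicate block and libraries left out. Promoter sequences come from RefSeq (GRCh38.p14), and transcript GC content from GENCODE v29, so neither shares the hg18 coordinates. Figures were drawn with matplotlib 3.10.9.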

Additional observations from a re-analysis of the deposited data

How the results depend on the processing

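No change of a member that passed the test in any of the 21 alternative fits reversed its direction. Of 146 refits of the 7 called changes, 106 kept the call and 40 lost it, with the direction kept. The count of 6 members lower after genistein was 10 with quantile normalization, 12 with arrayWeights and 2 without both DMSO 1 and genistein 2. The shares of all tested genes called lower there were 9.6%, 22% and 2.12%. Without 1 DMSO or genistein library the count was 2 to 6, and the share 1.03% to 4.76%. The count of 0 higher was 1 among genes above 0 in all libraries, with quantile normalization and with only the compared groups in the fit. The shares of all tested genes called higher there were 8.98%, 9.32% and 10.1%. The member was VNN1 with quantile normalization and PPARGC1A in the remaining settings. The count was 3 with arrayWeights (PPARGC1A, ETFB and VNN1, 20.6%) and 1 without both DMSO 1 and genistein 2 (VNN1, 1.21%). Without 1 DMSO or genistein library the count was 0 to 1, the 1 being VNN1 without genistein 2 (2.12%). VNN1 entered the test only through genistein 1 and 3, so none of its calls has independent support. The 1 member lower after BMP6 was 0 with a pseudocount of 0.1, a mean of at least 5 FPKM or only the compared groups. It was also 0 with arrayWeights and without both DMSO 1 and genistein 2. In those settings 0.0316% to 1.03% of all tested genes were lower. The count was 2 with equal FPKM totals (3.54%) and 0 without any 1 DMSO or genistein library. Genistein against BMP6 had 0 lower members, against 1 with a pseudocount of 5, with equal totals and without both DMSO 1 and genistein 2. The shares of all tested genes called lower there were 1%, 1.37% and 0.474%. The count was 2 with median-of-ratios scaling (2.06%) and 3 with quantile normalization (1.89%). Without 1 DMSO or genistein library it was 0 to 1. Its count of 0 higher was 1 without both DMSO 1 and genistein 2 (0.908%) and 0 to 1 without 1 DMSO or genistein library, each time VNN1. The replicate numbers did not pair the samples: deviations of DMSO and genistein libraries of the same number had correlations of -0.15, -0.07 and -0.00 and not every library correlated best with its own number. Between genistein 1, 2 and 3 and BMP6 1 the correlations were -0.25, -0.29 and 0.59, with the opposite sign for BMP6 2. The source of these correlations between treated libraries was not tested. With the replicate block 2 members were lower after genistein and 0 after BMP6, against 1.88% and 0.0079% of all tested genes. Among all tested genes, 773 higher and 754 lower calls after genistein were 791 and 1334 with equal totals, and 43 and 63 after BMP6 were 118 and 448, where the median of all genes shifted by -0.11 and -0.10. All calls after genistein numbered 1527, from 244 without DMSO 2 to 5383 with arrayWeights, those after BMP6 106, from 4 with the block to 1892 without BMP6 2, and those between the treatments 176, from 7 with the block to 540 without BMP6 2. The cause of these shifts was not tested. With no counts, neither an interval nor a detection limit could be given, and a value of 0 can be a failed estimate. Among the members only the ECI2 value of genistein 1 carried a FAIL status.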

Other observations

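Some of the further genes of fatty acid handling had BMP6 means set mainly by 1 library. SIRT1, a deacetylase that acts on PGC-1 alpha, had 20.1, 25.1 and 23.3 FPKM in DMSO, 60.6, 167 and 169 in genistein, but 394 in BMP6 1 and 34.3 in BMP6 2. ACSL4, an acyl-CoA synthetase that prefers arachidonic acid, had 126, 158 and 119 FPKM in DMSO, 158, 281 and 343 in genistein, 1192 in BMP6 1 and 146 in BMP6 2. For both genes each genistein library exceeded each DMSO library, as for 23.3% of all tested genes, and for SIRT1 each BMP6 library did too. Neither gene passed the test after BMP6 (limma adjusted p = 0.233 and 0.298) or after genistein (0.101 and 0.421). Both were picked after their values were seen.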
